A study of Canis lupus familiaris with 18 samples.

Results

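The comparison described here set canine primary endothelial cells (CaPECs) against vascular smooth muscle cells (VSMCs) cultured from the same kind of vessel, the aorta. Its members were chosen by the sample labels alone: 3 aortic CaPEC libraries and 3 aortic VSMC libraries, 6 of the 18 libraries of the series. The other 12 libraries hold the same cell types from the vena cava and the vena porta. All cells came from the vessels of healthy male dogs aged about a year, left over after separate pacemaker research on the same animals, and RNA was taken at passage 3. No treatment of the cultured cells is stated. CaPECs were released with collagenase and dispase from the inner face of an inverted abdominal vessel and grown on gelatin in an endothelial growth medium, whereas VSMCs came from the minced remainder of that vessel and grew in DMEM with fetal calf serum. Cell type and medium therefore changed together, and their parts in any difference cannot be told apart. CaPEC and VSMC libraries carry the numbers 1 to 3, but nothing in the labels links a CaPEC number to a VSMC number, so the groups were compared unpaired. The labels do not say whether the libraries of one group came from separate cultures, but the columns of the count table carry a different number for each, and the vessels came from 3 dogs.

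The endothelium is the single layer of cells that faces the blood. It forms the barrier of the vessel, controls clotting and the passage of white blood cells, and sprouts to form new vessels. Smooth muscle cells make up the wall beneath it, where they contract to set the diameter of the vessel and produce the collagen and elastic fibres that carry the load. The aorta is an elastic artery with a thick muscular layer, and both cell types are known to lose part of their specialised state in culture.

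The aortic libraries held 6020932 to 10090704 counts in CaPECs and 10027682 to 12159123 in VSMCs, and 10868 to 11468 genes reached 10 counts in each. Replicates differed by 7.36 to 16.6 times what counting alone gives, so no library was a copy of another. Levels are given as normalized CPM, which are counts scaled to a common library size with edgeR's TMM method and not adjusted for gene length. The genes are listed by Ensembl identifier only, and 0 of the 24580 identifiers matched a symbol in the gene table used here. Endothelial and muscle markers could therefore not be looked up by name, and genes are described by their levels, their numbers, and their behaviour in other libraries. In place of named markers, the labels of the aortic libraries were checked against genes that separate the cell types in the veins, as described further on.

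The aortic CaPECs and VSMCs differed in a large part of their expressed genes, by similar numbers in each direction. Of 11389 genes with enough counts to be tested, 3419 were called, which is 30% of the genes tested. Of these, 1781 (15.6% of the genes tested) were higher in CaPECs and 1638 (14.4%) were higher in VSMCs. A call required an adjusted p-value below 0.05 in edgeR's quasi-likelihood test, with Benjamini-Hochberg adjustment over all genes tested, and an absolute log2 fold change above 0.4. With DESeq2's size factors in place of edgeR's TMM scaling, 1646 genes were higher in CaPECs and 1747 in VSMCs, so which direction held more genes depended on the scaling. The number higher in CaPECs was 1126 without VSMC library 1.

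Many of the differences were large. The median log2 fold change was 1.21 among the genes higher in CaPECs and -1.24 among those higher in VSMCs, against a median absolute value of 0.49 over all genes tested. A difference of more than 2 on the log2 scale, or 4-fold, was reached toward CaPECs by 515 genes and toward VSMCs by 500. A log2 fold change above 5 was reached by 95 and 101 genes. In these counts and in the medians, genes without a single count in any library of the lower group (19 higher in CaPECs and 34 higher in VSMCs) were set against a floor of 3 counts per library.

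**Figure D1:**
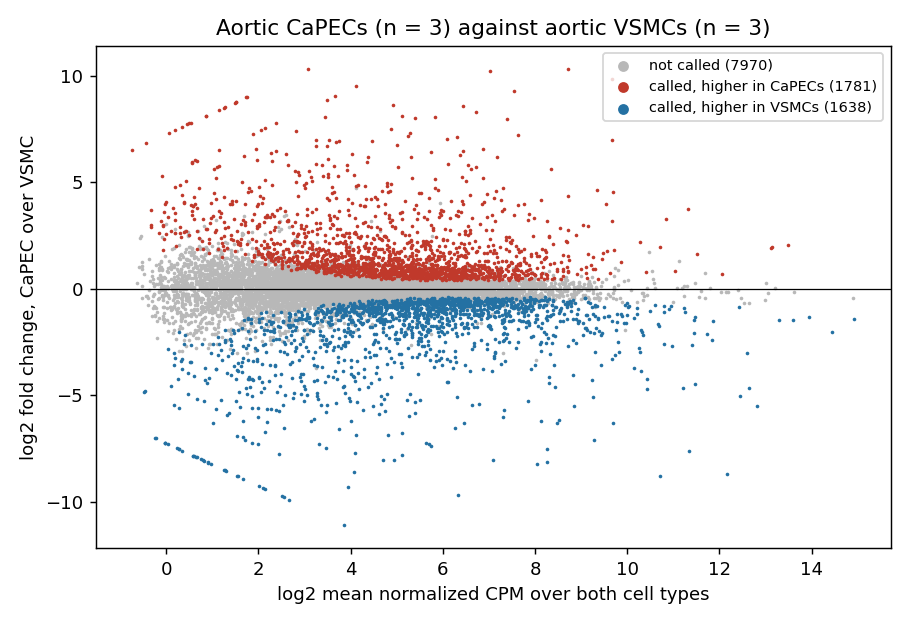
Each point is one of the 11389 genes tested in the aorta, with the log2 of its mean normalized CPM over both cell types on the x axis and its fitted log2 fold change, CaPEC over VSMC, on the y axis. The 1781 genes called higher in CaPECs (red) and the 1638 called higher in VSMCs (blue) spread over the range of levels, and the diagonal rows at the far left are genes with no count in one cell type, whose fitted fold depends on the prior count.

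The 3 libraries of each cell type separated without overlap in more genes than were called. In 2785 genes (24.5% of those tested) every CaPEC library lay above every VSMC library, and in 2555 genes (22.4%) every VSMC library lay above every CaPEC library. Nearly all called genes were of this kind, with 1759 of the 1781 higher in CaPECs and 1628 of the 1638 higher in VSMCs. A further 1953 genes did not overlap but were not called. Conversely, 105 genes had an absolute log2 fold change above 2 and were still not called, and their median standard error was 0.99, against 0.23 for the genes called higher in CaPECs and 0.22 for those called higher in VSMCs.

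From 1 CPM upward, a difference was called more often the more reads a gene had. Among the 1127 genes at 1 to 3 normalized CPM, averaged over both cell types, 16.2% were called, although their median absolute log2 fold change was 0.83. Among the 1511 genes at 100 CPM or more, 49.2% were called, with a median of 0.52. The median standard error was 0.66 in the lower class and 0.17 in the higher. In the highest class the called genes were 302 higher in CaPECs and 441 higher in VSMCs, whereas from 10 to 30 CPM they were 490 and 365. The 110 genes below 1 CPM had 20.9% called. Genes of low level that were not called are therefore not shown to be alike in the aortic cell types.

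The called genes took up unequal parts of the libraries. Genes called higher in VSMCs held 46.9%, 45.1%, and 48.0% of all counts in VSMC libraries 1 to 3, and 18.2%, 18.5%, and 19.2% in CaPEC libraries 1 to 3. Genes called higher in CaPECs held 27.9%, 28.4%, and 23.1% of all counts in the CaPEC libraries, and 7.31%, 8.31%, and 7.26% in the VSMC libraries. The genes were chosen on these libraries, so the shares describe the size of each program in the RNA and are no test of it. The 100 genes with the most normalized counts held 34.1% to 39.2% of the counts in CaPEC libraries and 42.7% to 48.1% in VSMC libraries. Of these 100 genes, 62 were common to both cell types. Of the 38 found in the VSMC list alone, 37 were called higher in VSMCs, and of the 38 in the CaPEC list alone, 23 were called higher in CaPECs. The 62 common genes included 22 called higher in VSMCs and 6 called higher in CaPECs. Over all genes tested the shares called were 14.4% toward VSMCs and 15.6% toward CaPECs, and among the 1511 genes at 100 CPM or more they were 441 and 302 genes. These lists rank counts without regard to gene length. They were ranked on the libraries that gave the calls, so a gene in a single list tends toward that cell type by construction. The numbers called among them are description and no test.

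**Figure D2:**
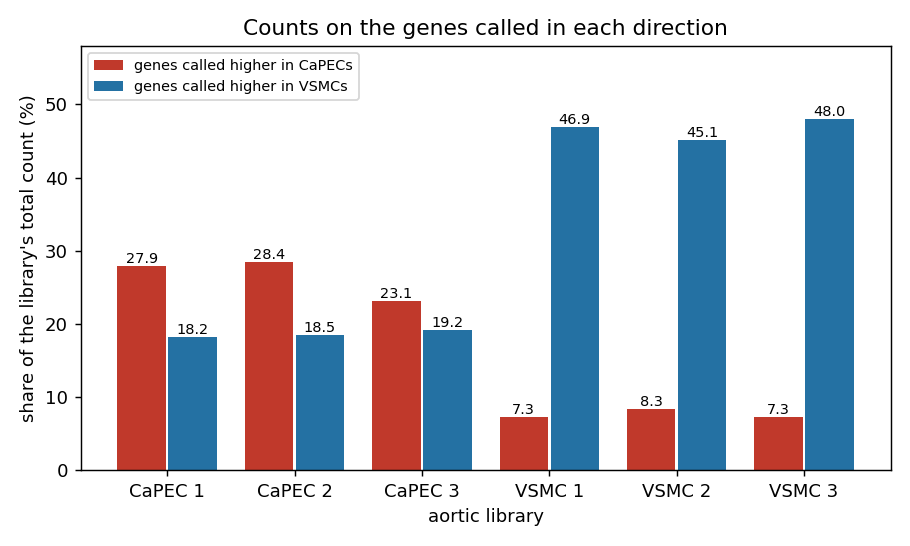
Bars give, for each of the 6 aortic libraries, the percentage of its total count that falls on the genes called higher in CaPECs (red) and on the genes called higher in VSMCs (blue). The VSMC-high genes take 45.1% to 48.0% of VSMC counts, while the CaPEC-high genes take 23.1% to 28.4% of CaPEC counts.

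A pair of genes in each direction was selected by rule, as the called genes without overlap that had the lowest p-values. ENSCAFG00000019134 was measured at 1485, 1680.0, and 1658 normalized CPM in CaPEC libraries 1 to 3 and at 17.3, 11.5, and 9.70 in VSMC libraries 1 to 3. Every CaPEC library was far above every VSMC library, with means of 1608 ± 107 and 12.8 ± 3.96 (SD, n = 3 each). Its log2 fold change was 6.97 (standard error 0.28, adjusted p = 2.05e-05 from edgeR).

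ENSCAFG00000004613 was measured at 591, 553, and 438 normalized CPM in the CaPEC libraries and at 30.3, 27.6, and 29.4 in the VSMC libraries. CaPEC library 3 was the lowest of its group, and the groups did not overlap. The means were 527 ± 79.6 and 29.1 ± 1.38 (SD, n = 3 each), and the log2 fold change was 4.18 (standard error 0.18, adjusted p = 2.05e-05 from edgeR).

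ENSCAFG00000011513 was higher in VSMCs, at 480.0, 448, and 427 normalized CPM, and was measured at 33.4, 30.4, and 34.9 in CaPECs. It was thus expressed at a moderate level in CaPECs too, and both groups were tight, with means of 451 ± 26.8 and 32.9 ± 2.32 (SD, n = 3 each). Its log2 fold change was -3.77 (standard error 0.15, adjusted p = 2.05e-05 from edgeR).

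ENSCAFG00000030132 was measured at 69.7, 91.2, and 84.7 normalized CPM in VSMCs and at 1.75, 1.82, and 2.41 in CaPECs, where the counts were 16, 12, and 29. The groups did not overlap, and the level in CaPECs was low in each library. The means were 81.9 ± 11.04 and 1.99 ± 0.361 (SD, n = 3 each), and the log2 fold change was -5.33 (standard error 0.21, adjusted p = 2.05e-05 from edgeR).

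The same genes were then read in the venous libraries, which had no part in their selection. Each vein was fitted on its own with 3 CaPEC and 3 VSMC libraries. ENSCAFG00000011513 and ENSCAFG00000030132 were higher in VSMCs in both veins, with log2 fold changes of -1.71 and -3.73 in the vena cava (adjusted p = 0.047 and 0.012 from edgeR) and of -4.52 and -3.35 in the vena porta (adjusted p = 6.12e-05 and 0.00025). ENSCAFG00000004613 was higher in CaPECs in both veins, by 2.85 and 1.88 (adjusted p = 0.031 and 0.022 from edgeR). ENSCAFG00000019134 was higher in CaPECs in the vena porta by 6.90 (adjusted p = 3.46e-05 from edgeR), and in the vena cava it had a log2 fold change of 4.50 that missed the threshold (adjusted p = 0.054). In the vena cava its CaPEC libraries were spread from 353 to 2150.4 normalized CPM, against 1571 to 1779 in the aorta when all 18 libraries were scaled together. Its VSMC libraries there were spread too, from 15.9 to 87.2, against 10.4 to 18.5 in the aorta.

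**Figure D3:**
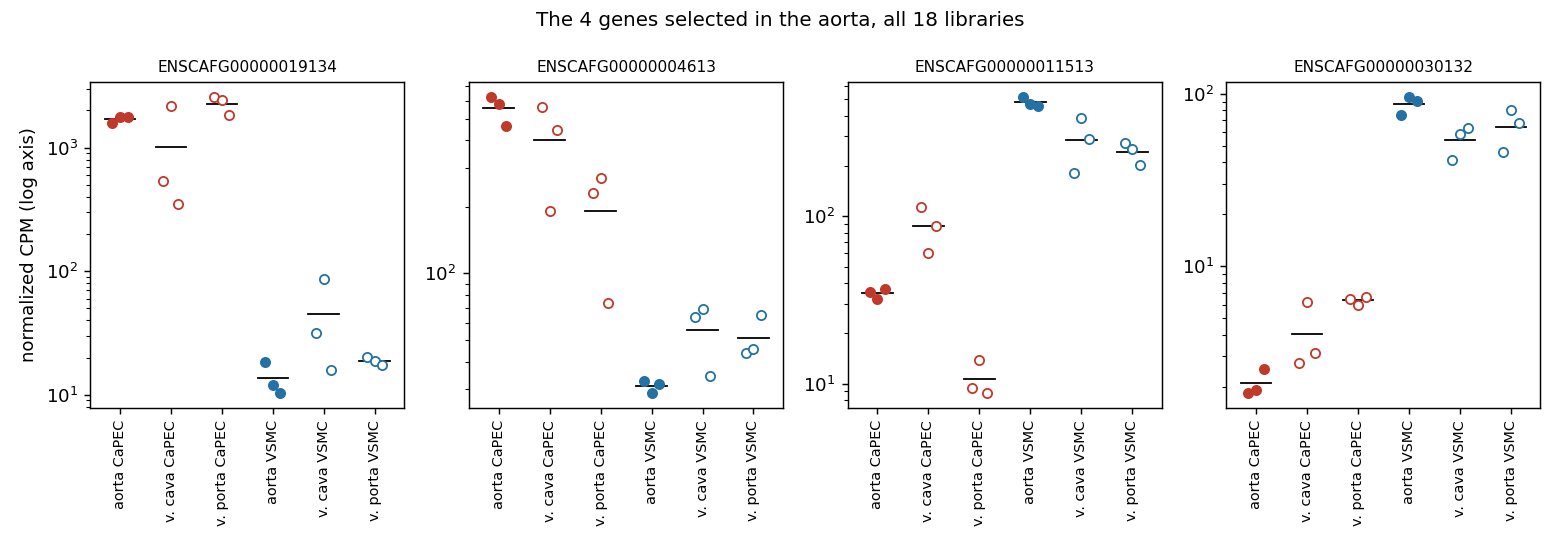
Points are the normalized CPM (log axis, all 18 libraries scaled together) of the 4 selected genes in CaPECs (red) and VSMCs (blue), filled for the aorta and open for the veins, and lines are means of 3 libraries. The aortic libraries of one cell type lie close together and apart from the other cell type in all 4 genes, and in ENSCAFG00000019134 the vena cava holds the most spread groups, from 353 to 2150.4 in CaPECs and from 15.9 to 87.2 in VSMCs.

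Some genes were detected in one aortic cell type alone, meaning that every library of that cell type had at least 1 normalized CPM and no library of the other had more than 3 counts. There were 63 such genes in CaPECs and 81 in VSMCs. In 18 and 40 of them, the other cell type had no count in any library, which allows up to 3 counts per library. Most were of low level, with a median of 4.22 CPM in CaPECs and 3.99 in VSMCs, and 12 and 13 of them reached a mean of 10 CPM. In the venous libraries, 36 of the 81 genes of aortic VSMCs reached 1 CPM in all 6 VSMC libraries, and 10 of the 63 genes of aortic CaPECs did so in all 6 CaPEC libraries. Over the 15500 genes with a count in the aorta, these shares were 66.5% and 65%. The 15500 genes cover all levels and were not matched to the low level of the 63 and 81 genes. In 21 of the 63 and 27 of the 81 genes, all 6 venous libraries of the other cell type had at most 3 counts, which was so in 12.9% and 12.3% of the 15500. Both criteria together were met in the veins by 1 of the 63 and 4 of the 81, and by 4 and 12 of the 15500 genes. These numbers rest on single libraries. Without CaPEC library 1 the CaPEC number was 108, without VSMC library 1 it was 100, and without CaPEC library 3 the VSMC number was 130.

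The aortic labels were checked with lists built from the 12 venous libraries alone. A gene entered a list if it was called between the cell types over both veins, had a fitted log2 fold change above 3, and did not overlap between the 6 CaPEC and 6 VSMC libraries. The CaPEC list held 108 genes and the VSMC list 187. The cultures are others, but the veins came from the same dogs as the aortas, so the lists are independent of the aortic libraries and not of the animals.

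In aortic CaPEC libraries 1 to 3, the genes of the venous CaPEC list summed to 15744.5, 21779.5, and 18252 normalized CPM, and in aortic VSMC libraries 1 to 3 to 1185, 897, and 1077. The groups were thus more than an order of magnitude apart, as their labels say. The genes of the venous VSMC list summed to 66946, 54406, and 81839 in the aortic VSMC libraries and to 3571, 3479, and 2035 in the aortic CaPEC libraries. With 3 libraries against 3, an exact permutation test cannot give a two-sided p below 0.1, so none was run on these sums. The sum over the VSMC list was highest in CaPEC library 1 among the CaPEC libraries, but the median gene of the list was lowest there, at 0.109 normalized CPM against 0.759 and 0.664 in libraries 2 and 3, and 67 of its 187 genes reached 1 CPM, against 86 and 79. In the aortic VSMC libraries the median gene of the CaPEC list was at 0.608 to 0.675, with 43 to 48 of the 108 genes at 1 CPM or more. Part of the other cell type's list was thus read in every library, and whether it stems from a few cells of that type or from expression in the cells themselves cannot be told apart in bulk RNA, where fewer cells of a type and less RNA per cell give the same reading.

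Gene by gene, the venous lists were largely carried into the aorta. Of the 108 CaPEC genes, 79 were called higher in aortic CaPECs, where the share over all genes tested was 15.6%. A further 9 were tested without a call and 20 had too few counts to be tested. Of the 187 VSMC genes, 136 were called higher in aortic VSMCs, where the share over all genes tested was 14.4%. A further 20 were tested without a call, 4 were called higher in aortic CaPECs, and 27 had too few counts to be tested. Without any filter on counts, 80 of the 108 and 159 of the 187 showed every aortic library of the named cell type above every library of the other, against 19.0% and 18.2% of the 15500 genes with a count in the aorta. Among the 160 VSMC genes tested in the aorta, 10 had a log2 fold change of opposite sign, the 4 called ones among them, that is, they were far higher in venous VSMCs than in venous CaPECs but higher in CaPECs within the aorta.

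In the other direction, the aortic calls were read in each vein. Of the 1781 genes higher in aortic CaPECs, 825 (46.3%) were called the same way in the vena porta, where 10.5% of genes tested were called higher in CaPECs. They made up 69.3% of the 1191 CaPEC-high genes of that vein. Of the 1638 genes higher in aortic VSMCs, 945 (57.7%) were called the same way in the vena porta, where 11.3% of genes tested were, and these were 74.1% of the 1276 VSMC-high genes there. In the vena cava 124 (6.96%) and 225 (13.7%) were called, where 1.52% and 2.64% of genes tested were called in the same directions. They formed 71.3% of the 174 and 74.8% of the 301 genes called there. The opposite call was made for 15 of the 1781 and 2 of the 1638 genes in the vena porta, and for 7 and 1 in the vena cava. The vena cava fit called 475 genes in all, 4.16% of those tested, and its CaPEC libraries had the largest spread of the 6 groups, their biological coefficient of variation being 0.40, compared with 0.260 in aortic CaPECs and 0.242 in aortic VSMCs. With the same floor of 3 counts for genes without a count in the lower group, 298 called genes had an aortic log2 fold change above 3 toward CaPECs. Of these, 157 were called the same way in the vena porta and 51 in the vena cava, and 73 and 87 had too few counts in those veins to be tested. Toward VSMCs, 203 and 94 of 297 were called, and 26 and 27 had too few counts.

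Whether the difference between the cell types was itself different in the aorta was tested over all 18 libraries in a model with 6 groups, as the aortic difference minus the mean difference of both veins. Of 12288 genes, 64 (0.521%) passed an adjusted p-value below 0.05 in edgeR's quasi-likelihood test, and 1392 had an unadjusted p-value below 0.05. In 45 of the 64 (0.366% of the genes tested) the difference was shifted toward CaPECs in the aorta, and in 19 (0.155%) toward VSMCs. With the number of the library as a block within each cell type, which is taken as the dog, 111 genes passed, 58 of them among the 64. The count fell to 23 without CaPEC library 1, and to 33, 31, and 32 without VSMC library 1, 2, and 3.

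The genes whose cell type difference in the aorta differed from the mean of both veins in this test did so mostly through the CaPECs. Among the 45 genes shifted toward CaPECs, the median level was 94.0 normalized CPM in aortic CaPECs, against 19.5 in CaPECs of the vena cava and 12.8 in those of the vena porta, while the VSMC medians were 19.2, 20.6, and 27.5 in the same order. In 44 of these genes, every aortic CaPEC library lay above all 6 venous CaPEC libraries, which was so in 5.36% of the 12288 genes tested. In 27 of the 45 and 5 of the 19, the aortic and venous differences had opposite signs. Among the 19 genes shifted toward VSMCs, the median was 18.8 in aortic CaPECs, 45.9 in CaPECs of the vena cava, and 37.1 in those of the vena porta, and 87.1, 54.2, and 66.6 in VSMCs of the same vessels. In 15 of the 19, every aortic CaPEC library lay below all venous ones, which was so in 3.43% of the genes tested. Among all 64 genes, the aortic VSMC libraries lay above all venous VSMC libraries in 5 and below them in 8, against 3.82% and 2.46% of the genes tested. Within the aorta, all 19 were called higher in VSMCs, where the share over all genes tested was 14.4%. Of the 45, 38 were called higher in CaPECs, where that share was 15.6%, 1 was called higher in VSMCs, and 6 were not called. These genes were chosen by the test, so their levels describe it and are no further support.

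**Figure D4:**
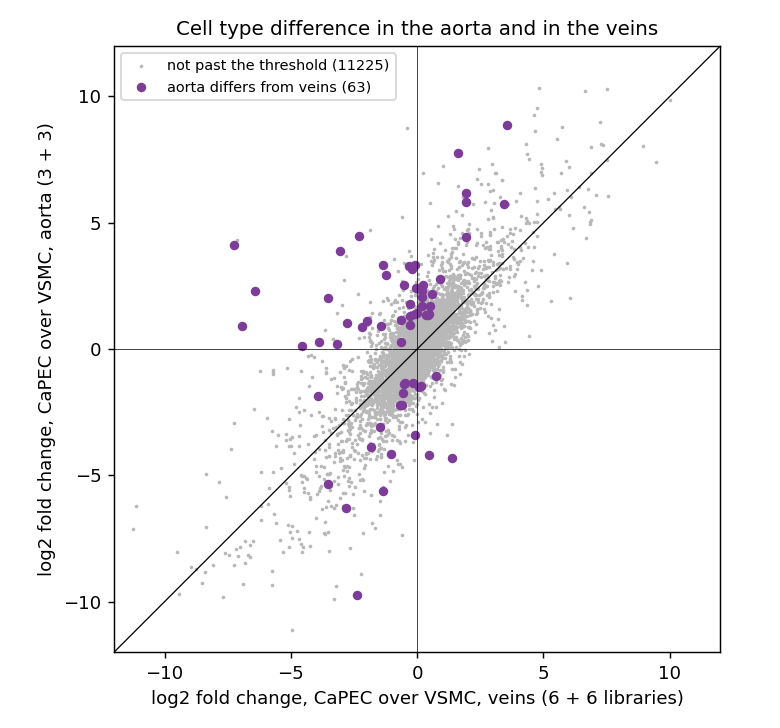
Each point is a gene tested in the aorta and in the veins, with its log2 fold change, CaPEC over VSMC, over both veins on the x axis and in the aorta on the y axis, and the diagonal marks equal values. The genes whose difference passed the test of aorta against veins (violet, 63 of the 64, since 1 was not tested on both axes) lie off the diagonal, with 27 of them in the upper left part of the plot, above 0 in the aorta and below 0 in the veins.

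The spread between libraries of one cell type was of a like size in aortic CaPECs and VSMCs, a comparison that was not tested. Among the 10662 genes at 1 CPM or more in both groups, the median coefficient of variation was 18.3% in CaPECs and 17.1% in VSMCs, and it was larger in CaPECs in 53.6% of the genes. On the log2 scale, libraries of the same cell type differed by a root mean square of 0.64 to 0.90 in CaPECs and 0.61 to 0.75 in VSMCs over all genes tested, and libraries of different cell types by 1.36 to 1.67. The first principal component of the 500 most variable genes held 86.6% of their variance, with CaPEC libraries 1 to 3 at -64.1, -45.7, and -48.7 and VSMC libraries 1 to 3 at 50.3, 53.4, and 54.7. The second component held 6.70% and set CaPEC library 1, at 26.6, apart from libraries 2 and 3 at -20.9 and -10.4.

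CaPEC library 1 stood apart mainly in one direction. In 259 genes it was over 4-fold below both other aortic CaPEC libraries, and in 11 genes over 4-fold above both. In the other 5 aortic libraries, these numbers were 21 to 58 and 11 to 47. In the 259 genes, the median was 0.109 normalized CPM in CaPEC library 1, 3.74 over CaPEC libraries 2 and 3, and 3.96 over the aortic VSMC libraries. No read was counted in library 1 for 128 of them. VSMC levels lay above both other CaPEC libraries on average in 120 of the 259 genes, and every VSMC library lay below both in 60. The same counts were not made over all genes tested, so these describe the 259 genes only. Over all genes tested, every CaPEC library, library 1 included, lay above every VSMC library in 24.5%. The venous CaPECs that carry the number 1 were over 4-fold below both other libraries for 11 of the 259 genes when from the vena cava and for 14 when from the vena porta. This count was not made over all genes tested, or for numbers 2 and 3. In the vena cava, CaPEC libraries 1, 2, and 3 were the lowest of their group for 77, 128, and 54 of the 259 genes. In the vena porta these numbers were 100, 87, and 71. Of the 259 genes, 201 were not called between the cell types, 47 were called higher in VSMCs, and 11 higher in CaPECs, against 14.4% and 15.6% of all genes tested in the same directions. Without aortic CaPEC library 1, 2923 genes were called in the aorta, of which 2658 were among the 3419.

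**Figure D5:**
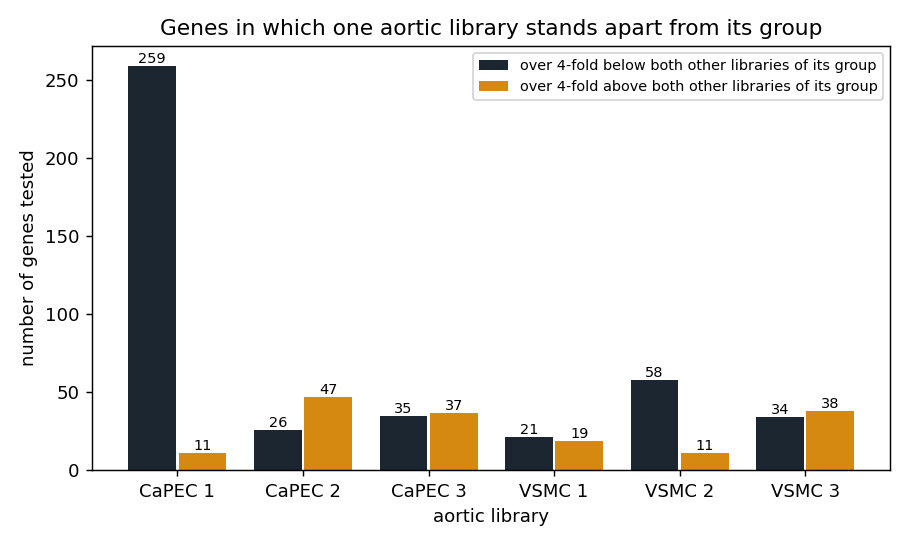
Bars count, for each of the 6 aortic libraries, the genes in which it lay over 4-fold below (dark) or above (orange) both other libraries of its cell type. CaPEC library 1 has 259 genes below and 11 above, while no other bar exceeds 58.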

How the data were processed

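Polyadenylated RNA of 18 canine cultures was sequenced as single-end directional reads of 75 bases. The authors aligned the reads to canFam3 (CanFam3.1 in the submitters' processing notes) with STAR 2.4.2a, added read groups with Picard, sorted with Sambamba, counted reads per gene with HTSeq-count 0.6.1p1 in union mode, and deposited these raw counts without normalization. The annotation release and the strand setting are not given in the sources used here. Genes were named by identifier, as 0 of 24580 matched the gene table (assembly UU_Cfam_GSD_1.0), so the marker and pathway lists set up by symbol, RPKM, and sequences were not used here.

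The 6 aortic libraries were fitted alone with edgeR 4.0.16 in R 4.3.3 (TMM, filterByExpr with a minimum count of 10, glmQLFit, glmQLFTest), and groups came from the sample titles. Normalized CPM used TMM-scaled totals, and log2 CPM a prior count of 2. DESeq2 1.42.0, its size factors, limma 3.58.1 with a variance for each cell type, other filters and thresholds, the replicate number as a block, all 18 libraries in one fit, and each library left out were alternatives. Standard errors came from edgeR's F statistic. Total counts of 6020932 to 12159123 limit the precision of low genes, and floors and intervals of counts cover counting error only. In counts simulated for this design, the share of unchanged genes among edgeR's calls was above the nominal 5%, so some of the calls may be false beyond that share. The simulation changed 200 genes by a log2 fold change of 2 and used no fold threshold, whereas 3419 genes were called here. It therefore does not give the size of the false share among these calls. The members were chosen by the sample labels and not by their values. That choice, the lists, and the rule for the 2 genes named in each direction were made with earlier results of these data known. The venous lists and the per-library numbers were chosen after the data were seen.

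Between vessels of one cell type, the column names of the count table give libraries with the same replicate number a shared number, taken here as the dog. Their deviations from the group means correlated across genes at -0.28 to 0.21 over 9 CaPEC pairs and at 0.098 to 0.47 over 9 VSMC pairs.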

Additional observations from a re-analysis of the deposited data

Results flagged for a closer look

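The difference between CaPECs and VSMCs was itself different in the aorta and the veins in 64 genes, by the test of that difference in edgeR. ENSCAFG00000030132 was among them: its log2 fold change was more negative in the aorta by -1.80 (adjusted p = 0.035 from edgeR's quasi-likelihood test, 18 libraries). In CaPECs it was at 1.85 to 2.55 normalized CPM in the aorta and at 2.75 to 6.65 in the 6 venous libraries, and in VSMCs at 74.9 to 95.6 and 41.1 to 80.4. Over 13 alternatives the value ranged from -2.00 to -1.61 and the adjusted p from 0.0011 to 0.349, and 9 of the 13 missed the threshold. The gene was named for its low p-value in the aorta, and the test of aorta against veins uses the same aortic libraries. Its value is therefore no independent support for a shift. Dixon's test for a library far from the others of its group was not run, as the groups hold 3 libraries.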

How the results depend on the processing

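The 3419 genes called in the aorta (1781 higher in CaPECs, 1638 in VSMCs) moved by over 1.5 times with an absolute log2 fold change above 1, which left 2077 (1072 and 1005), and the CaPEC number also without VSMC library 1 (1126). Leaving out one library gave 2311 to 2982 genes, 1126 to 1508 higher in CaPECs and 1185 to 1481 in VSMCs. The 4 named genes kept their direction and threshold in all 15 alternatives, with adjusted p-values of at most 0.00042.

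CaPECs and VSMCs of the same number did not deviate together (correlations across genes of 0.045, -0.14, and -0.16). Between CaPECs and VSMCs of unlike number the correlations were -0.074 to 0.22. Which CaPEC and VSMC libraries share a dog thus remains unknown. A fit with the replicate block called 2642 genes, 2596 of them among the 3419. For aorta against veins, the replicate block gave 111 genes in place of 64, DESeq2 338, and leaving out a single aortic library 23 to 59. Against the vena cava alone 103 genes passed, 47 of them among the 64. Against the vena porta alone 29 passed, 19 of them among the 64. The cause of these moves was not tested.

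The first component held 72.0% of the variance over all genes tested, in place of 86.6%, and 81.3% to 89.99% with one library left out. The biological coefficient of variation of aortic CaPECs was 0.230 with a minimum count of 30, in place of 0.260. Genes detected in one cell type alone numbered 6 in CaPECs and 5 in VSMCs at 10 CPM, 18 and 40 when 0 counts were required, and 74 to 108 in CaPECs with one library left out (63 with all) and 89 to 130 in VSMCs (81 with all). At low depth these numbers depend on few reads.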
